A study of Mus musculus with 6 samples.

Results

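The mitosis and spindle genes compared here are 46 genes chosen by name, as the cyclins, kinases, checkpoint proteins, kinetochore proteins, kinesins, cytokinesis factors and condensin subunits that act between the G2 phase and the end of cell division. All 46 were among the 17831 genes of the deposited table, and all 46 passed the filter on low counts that left 13623 genes to test. They were measured by bulk RNAseq in lung group 2 innate lymphoid cells (ILC2s), which are tissue lymphocytes that lack antigen receptors and secrete type 2 cytokines. WT mice were of the strain the labels write as CB57BL/6, and SIRPα KO mice carried the tm1Ynliu allele of the gene for SIRPα, an inhibitory receptor that binds CD47, on both chromosomes. Mice of both genotypes, 6 to 8 weeks old, were given 0.5 μg of rmIL-33 into the nose on 3 days. Their ILC2s, sorted on day 4, were kept in culture with rmIL-2 plus rmIL-7 until RNA was taken. The culture lasted 18 h by one passage of the study's text and 24 h by another. The knockout was not restricted to ILC2s. Each genotype had 3 libraries, with cDNA amplified from 10 pg of RNA. The labels give WT replicates 1 and 2 the same code apart from a suffix, and likewise SIRPα KO replicates 2 and 3, and the submitters' design text speaks of duplicates, so each group may hold 2 samples and not 3. Nothing in the labels says which libraries came from separate mice, and a p value here measures the spread between libraries.

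Mitosis is driven by Cdk1 bound to cyclin A or cyclin B, which the Cdc25 phosphatases switch on and the anaphase-promoting complex (APC/C) switches off by having the cyclins degraded. Polo-like and Aurora kinases, kinesin motors and kinetochores build the spindle and attach it to chromosomes that condensin has compacted, and the spindle checkpoint holds the APC/C back until every chromosome is attached. Transcripts of these genes accumulate late in the cell cycle and are scarce in resting cells, so that in a bulk sample a lower level can mean fewer cells in division or less RNA in each, and the 2 cannot be told apart.

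The libraries held 13980491 to 19051504 reads on genes, and single mitosis genes had 186 to 7463 reads in a library, so counting error was small beside the differences between libraries. The biological coefficient of variation that edgeR estimated over all genes was 38.1% in WT, 27.9% in WT without replicate 3 and 15.2% in SIRPα KO. Reads on Sirpa itself were few in every library, at 8.57, 6.83 and 4.83 normalized read counts (CPM) in WT replicates 1 to 3 and 3.07, 4.46 and 1.74 CPM in SIRPα KO replicates 1 to 3. The 3 SIRPα KO libraries were lower than the 3 WT libraries, with a log2 fold change of -1.12 that was not past the threshold (adjusted p = 0.115 by edgeR). Which part of Sirpa the allele removes was not given in the sources used here, so these reads check the labels only in part. Summed levels of 12 ILC2 markers ran from 15079 to 16253 CPM in WT against from 20931 to 21511 CPM in SIRPα KO, with Il5, Il2ra and Ptprc higher and Id2 lower at an adjusted p under 0.05. Most of this difference lay in the cytokine gene Il5, with means of 9192 CPM in WT against 12951 CPM in SIRPα KO, and in Il2ra, with 1841 against 3451 CPM. The lineage factors Gata3 (log2 fold change 0.10) and Rora (0.10) overlapped between the groups, as did Areg (0.29). Icos (-0.29, adjusted p = 0.140) and Klrg1 (-0.38, adjusted p = 0.124) were lower in every SIRPα KO library but were not called. Il1rl1 (0.70, adjusted p = 0.0599), Il7r (0.60, adjusted p = 0.0644) and Il13 (0.34, adjusted p = 0.141) were higher in every one and were not called either. The 6 T cell markers in the table summed to 52.9 to 73.4 CPM in WT and to 35.0 CPM or less in SIRPα KO. Most of this was Trbc1, a T cell receptor constant gene, at 48.2, 55.6 and 71.7 CPM in the WT replicates and 33.1, 28.8 and 28.2 CPM in the SIRPα KO replicates, and called lower (adjusted p = 0.0228), while Cd3e was at 2.42 CPM or less and Cd4 at 0.577 CPM or less in every library. The B cell markers summed to 31.6 to 38.5 CPM in WT against 14.0 to 15.8 CPM in SIRPα KO, with 3 of 4 tested genes called lower, and the NK cell markers to 8.34 to 15.6 CPM and 0.682 to 1.63 CPM, with 2 of 4 called lower. Epithelial and stromal markers summed to 60.6 to 85.9 CPM in WT against 46.8 to 107 CPM in SIRPα KO, where Epcam was called lower (log2 fold change -1.18, adjusted p = 0.0354) and Pecam1 higher (0.87, adjusted p = 0.0421). The sums for eosinophils, mast cells and basophils were 7.59, 8.75 and 21.9 CPM in WT against 28.9, 2.41 and 1.55 CPM in SIRPα KO, so that SIRPα KO replicate 1 stood apart, and none of the 2 tested genes was called. Among the 7 macrophage markers 1 was called higher, and their sums were 43.7 to 128 CPM in WT against 76.9 to 120 CPM in SIRPα KO. After the adjustment for principal transcript length and GC content described further on, the log2 fold change of Trbc1 went from -0.96 to -0.20 (adjusted p = 0.435) and that of Ptprc from 0.90 to 0.43 (adjusted p = 0.0712). The B cell marker Cd79b (-0.45, adjusted p = 0.163) and the macrophage marker Itgam (2.21, adjusted p = 0.0701) lost their calls too. Icos (-0.65, adjusted p = 0.00597) was then called lower and Il13 (0.73, adjusted p = 0.00625) higher. With codes summed as well, neither was called (adjusted p = 0.0889 and 0.0645 by edgeR). The part of these other cells in the results on mitosis genes was not tested.

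Promoters of genes of this class commonly carry a cell cycle genes homology region (CHR), a short element near the transcription start that binds the MuvB complex, with CCAAT boxes upstream of it that bind NF-Y. RefSeq promoter windows on GRCm38.p6, from 250 bases before to 50 after the start, were found for 38 of the 46 genes, giving 40 windows, and both strands were searched. No window was given for Aurkb, Ccna2, Cdc25c, Incenp, Kif20a, Smc4, Spc24 or Tpx2. The letters TTTGAA of the CHR were present in 32 of the 40 windows (80.0%) and in 17.9% of all 32851 mouse promoters of the same length. In 28 of the 32 the nearest match lay within 60 bases of the start. CCAAT was present in 31 windows (77.5%), against 37.4% of all promoters, and both in 27 (67.5%), against 6.95%. The variant TTTAAA, which reads the same on both strands, was in 25.0% of the windows and 13.2% of all promoters. The E2F letters TTTGGCGC and TTTCGCGC were in 2 windows and 1 window. Among 139 windows of a wider list of mitosis genes described further on, 35.3% held TTTGAA and 57.6% held CCAAT.

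The 150 bases from 120 before to 30 after the start are shown for 5 genes that were lower in SIRPα KO and carry TTTGAA (Ube2c, Cenpa, Ccnb2, Spc25 and Cdca8), and for Cdk1, Top2a and Mki67, which carry it too and were not called. Capitals mark TTTGAA and CCAAT on either strand, which read as TTCAAA and ATTGG on the opposite one. The 2 motifs may share bases, as they do at the end of the Cdca8 window.
Ube2c (chr2:164769809-164769958, plus strand): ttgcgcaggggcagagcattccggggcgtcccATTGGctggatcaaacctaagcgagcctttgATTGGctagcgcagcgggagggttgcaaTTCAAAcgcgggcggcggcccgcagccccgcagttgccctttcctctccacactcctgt
Cenpa (chr5:30666766-30666915, plus strand): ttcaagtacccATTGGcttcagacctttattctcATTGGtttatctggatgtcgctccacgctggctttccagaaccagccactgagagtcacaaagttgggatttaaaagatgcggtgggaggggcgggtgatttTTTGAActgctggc
Ccnb2 (chr9:70421525-70421674, minus strand): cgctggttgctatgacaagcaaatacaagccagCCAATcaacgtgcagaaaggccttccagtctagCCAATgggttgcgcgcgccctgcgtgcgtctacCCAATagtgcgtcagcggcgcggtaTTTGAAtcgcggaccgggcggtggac
Spc25 (chr2:69206184-69206333, minus strand): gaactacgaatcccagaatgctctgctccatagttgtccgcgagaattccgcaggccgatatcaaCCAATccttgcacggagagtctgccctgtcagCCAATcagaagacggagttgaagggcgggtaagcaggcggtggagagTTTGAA
Cdca8 (chr4:124936888-124937037, minus strand): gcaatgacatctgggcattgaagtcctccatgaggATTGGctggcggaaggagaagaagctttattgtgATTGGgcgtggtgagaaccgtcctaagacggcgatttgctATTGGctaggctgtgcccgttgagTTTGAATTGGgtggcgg
Cdk1 (chr10:69352883-69353032, minus strand): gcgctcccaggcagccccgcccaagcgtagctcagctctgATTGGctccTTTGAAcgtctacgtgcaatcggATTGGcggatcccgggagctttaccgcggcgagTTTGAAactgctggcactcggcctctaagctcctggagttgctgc
Top2a (chr11:99024160-99024309, minus strand): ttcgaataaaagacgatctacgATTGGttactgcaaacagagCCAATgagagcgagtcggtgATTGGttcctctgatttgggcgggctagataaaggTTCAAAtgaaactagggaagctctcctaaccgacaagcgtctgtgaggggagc
Mki67 (chr7:135716350-135716499, minus strand): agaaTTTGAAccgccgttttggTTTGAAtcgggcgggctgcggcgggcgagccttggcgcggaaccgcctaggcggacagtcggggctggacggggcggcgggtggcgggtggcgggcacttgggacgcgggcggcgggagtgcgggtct

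In the 5 genes that were lower, the TTTGAA match of the printed bases lay between 29 before and 25 after the start, with CCAAT upstream of it. The start is that of RefSeq, and such positions depend on the annotation. For Cdca8 it is base 124936917, where the GENCODE M21 gene starts at 124939311, and for Cenpa 30666886, against 30666777. Cdk1 and Top2a, which were not called, also held such a match near the start with CCAAT upstream. The matches of Mki67 lay farther off, at 116 and 98 bases before the start, and its CCAAT matches lay outside the printed bases. Of the 7 genes called lower 5 held TTTGAA and 6 held CCAAT. Birc5 and Cdc25b held no TTTGAA in their windows. A match is only a match of letters, and binding was not measured.

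Of the 46 mitosis and spindle genes, 7 fell in SIRPα KO ILC2s and 1 rose when the 3 libraries of each genotype were taken as separate samples. Summing the libraries that share a code left none of the 8 called (adjusted p from 0.130 to 0.180 by edgeR), and with the code as a random block Bub1, Cdc25b and Cdca8 were not. Over all genes tested, 5.81% were called lower and 5.94% higher by the same rule, an adjusted p under 0.05 from edgeR's quasi-likelihood test. The genes that fell were Ube2c, Cenpa, Birc5, Ccnb2, Cdc25b, Spc25 and Cdca8, and the gene that rose was Bub1. The median log2 fold change over the 46 genes was -0.03, as it was over all genes tested (-0.03), with 22 genes above 0 and 24 below. WT and SIRPα KO libraries were fully separated for 24 of the 46 genes, 10 higher and 14 lower in SIRPα KO, where the groups do not overlap for 42.8% of all genes tested. At an unadjusted p under 0.05 there were 9 higher and 12 lower, where 16.1% of all genes tested were higher and 15.8% lower. As counted, the genes did not move as a block, and the plot of CPM by library shows differences of both signs within every role but the passenger complex.

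**Figure D1:**
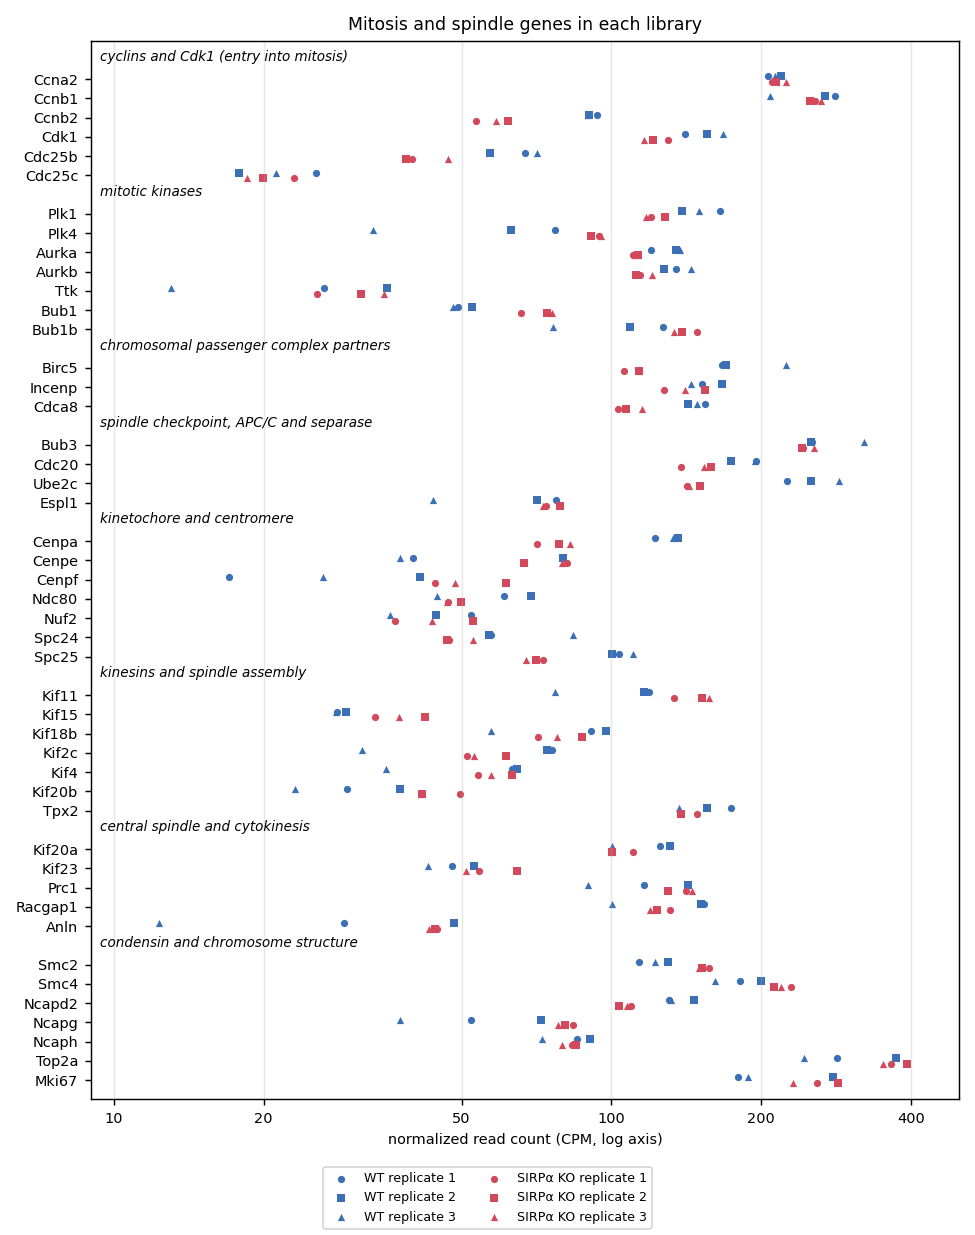
Normalized read counts (CPM, log axis) of the 46 mitosis and spindle genes in each of the 6 libraries, grouped by role, with WT in blue and SIRPα KO in red and 1 point per library. The 3 SIRPα KO points of Ube2c, Cenpa and Birc5 lie to the left of all WT points, and WT replicate 3 is the lowest of the 6 for all 7 kinesin and spindle assembly genes.

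Among the cyclins and activators of Cdk1, 2 of 6 genes fell and the remaining 4 were not called. Ccnb2, cyclin B2, was at 93.6, 90.2 and 89.6 CPM in WT replicates 1 to 3 and at 53.4, 62.0 and 58.5 CPM in SIRPα KO replicates 1 to 3. WT was thus 1.57-fold above SIRPα KO with no overlap (log2 fold change -0.65, SE 0.12, adjusted p = 0.0212). Cdc25b, a phosphatase that activates Cdk1 at entry into mitosis, was at 66.9, 56.9 and 70.9 CPM in WT and at 39.8, 38.6 and 46.9 CPM in SIRPα KO. The change came to -0.64 on the log2 scale (SE 0.15, adjusted p = 0.0385), again with every SIRPα KO library below every WT library. Cdk1, the mitotic kinase itself, was at 141, 155 and 167 CPM in WT and at 130, 121 and 116 CPM in SIRPα KO. The groups did not overlap, but the log2 fold change of -0.33 (SE 0.12) was not past the threshold (adjusted p = 0.0974). Ccnb1, cyclin B1, was nearly level, with 281, 268 and 208 CPM in WT against 256, 250 and 263 CPM in SIRPα KO (log2 fold change 0.02, SE 0.13, adjusted p = 0.921). The copies Ccnb1-ps, Gm12856 and Gm8416, with 97.3% to 99.2% identity to Ccnb1 over at least 1287 bases, are also in the table, so its reads could be shared with them. These copies held 17 to 74 reads each in a library, beside 3147 to 4886 reads on Ccnb1. Ccna2, cyclin A2, had a log2 fold change of 0.02, with 213 ± 6.49 CPM in WT against 216 ± 7.32 CPM in SIRPα KO (SD, n = 3). Cdc25c, the low member of this group, had -0.07.

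In the mitotic kinases 1 of 7 genes was called, and it was the one gene of the 46 to rise. Bub1, a checkpoint kinase of the kinetochore, was at 49.1, 52.5 and 48.0 CPM in WT and at 65.8, 74.0 and 76.0 CPM in SIRPα KO. The SIRPα KO libraries were 1.44-fold higher with no overlap (log2 fold change 0.53, SE 0.13, adjusted p = 0.0405). Plk4, which starts centriole duplication, had 77.1, 62.8 and 33.2 CPM in WT against 94.3, 91.0 and 95.1 CPM in SIRPα KO. Its log2 fold change of 0.70 was the second highest of the 46 genes as counted but had an SE of 0.27 (adjusted p = 0.129). WT replicate 3 was at 0.475 of the mean of the other WT libraries. Plk1, the polo-like kinase of mitotic entry and spindle formation, had 165, 139 and 150 CPM in WT against 120, 128 and 117 CPM in SIRPα KO. Every SIRPα KO library was lower, and the log2 fold change was -0.31 (SE 0.12, adjusted p = 0.113). Aurkb, the kinase of the chromosomal passenger complex, had 135, 128 and 145 CPM in WT against 114, 112 and 121 CPM in SIRPα KO (log2 fold change -0.23, SE 0.11, adjusted p = 0.191). Aurka, the spindle pole kinase, had a log2 fold change of -0.22, while the checkpoint genes Bub1b (0.43) and Ttk (0.30) were on the positive side. None of these was called, although 6 of the 7 kinases, all but Ttk, had groups that did not overlap. As counted, 3 of them were higher in SIRPα KO and 3 lower, where 42.8% of all genes tested were likewise separated. After the adjustment for principal transcript length and GC content described further on, 3 kinases were separated, all of them lower in SIRPα KO.

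The partners of Aurkb in the chromosomal passenger complex, which corrects wrong attachments at the centromere, were all lower in SIRPα KO, and 2 of 3 fell. Birc5 (survivin) had 167, 170 and 224 CPM in WT against 106, 114 and 114 CPM in SIRPα KO. That is a WT mean 1.68-fold above SIRPα KO, with a log2 fold change of -0.75 (SE 0.14, adjusted p = 0.0220). Cdca8 (borealin) had 154, 143 and 149 CPM in WT against 103, 107 and 115 CPM in SIRPα KO (log2 fold change -0.45, SE 0.11, adjusted p = 0.0386). Incenp, the scaffold, overlapped between the groups, with 154 ± 11.5 CPM in WT against 141 ± 13.3 CPM in SIRPα KO (SD, n = 3) and a log2 fold change of -0.14 (adjusted p = 0.468).

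Ube2c, the ubiquitin-conjugating enzyme that works with the APC/C, had the most negative log2 fold change of all 46 genes as counted. It was at 225, 252 and 286 CPM in WT and at 142, 150 and 143 CPM in SIRPα KO, 1.75-fold higher in WT (log2 fold change -0.81, SE 0.12, adjusted p = 0.0136). The other 3 genes of the checkpoint and APC/C group were not called. Cdc20, the APC/C activator that the checkpoint holds back, was at 195, 174 and 194 CPM in WT and at 138, 158 and 154 CPM in SIRPα KO. These did not overlap, with a log2 fold change of -0.32 (SE 0.11, adjusted p = 0.0967). Bub3, a checkpoint protein, had a log2 fold change of -0.16, and Espl1, the separase that cuts cohesin at anaphase, had 0.23.

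At the kinetochore and centromere 2 of 7 genes fell and none rose. Cenpa, the histone H3 variant that marks the centromere, was at 122, 136 and 133 CPM in WT and at 71.0, 78.5 and 82.6 CPM in SIRPα KO. It was 1.68-fold higher in WT (log2 fold change -0.75, SE 0.12, adjusted p = 0.0152). Spc25, a subunit of the NDC80 complex that holds microtubules, was at 104, 100.2 and 111 CPM in WT and at 73.0, 70.6 and 67.2 CPM in SIRPα KO (log2 fold change -0.58, SE 0.12, adjusted p = 0.0252). The other subunits of that complex were not called, with log2 fold changes of -0.43 for Spc24, -0.28 for Ndc80 and 0.00 for Nuf2. Cenpf, a large outer kinetochore protein, had the highest log2 fold change of the 46 genes as counted (0.87, SE 0.31, adjusted p = 0.101). Its WT libraries were at 17.0, 41.2 and 26.3 CPM and its SIRPα KO libraries at 44.3, 61.4 and 48.6 CPM. WT replicates 1 and 2, which share a code, differed 2.42-fold in Cenpf. Cenpe, the kinetochore motor, was likewise at 39.8 and 79.9 CPM in those replicates, and its log2 fold change was 0.53 (SE 0.29, adjusted p = 0.237).

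None of the 7 kinesin and spindle assembly genes was called. Kif11, the motor that pushes spindle poles apart, had 104 ± 23.4 CPM in WT against 147 ± 12.2 CPM in SIRPα KO (SD, n = 3), with no overlap and a log2 fold change of 0.50 (adjusted p = 0.104). Kif20b (0.56) and Kif15 (0.41) were also higher in every SIRPα KO library. Kif4 (0.10), Kif18b (-0.06), Kif2c (-0.13) and Tpx2 (-0.13), which activates Aurka on the spindle, overlapped between the groups. WT replicate 3 gave the lowest value of the 6 libraries for all 7 of these genes, and for 24 of the 46 mitosis genes (52.2%), against 33.4% of all genes tested. In Kif2c, a motor that takes microtubules apart, this library was at 31.5 CPM beside 75.9 and 74.1 CPM in the other WT libraries.

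The 5 genes of the central spindle and cytokinesis were not called either, and all of them overlapped between the groups. Their log2 fold changes were -0.20 for the kinesin Kif20a, -0.12 for Racgap1, 0.24 for its partner Kif23, 0.26 for the microtubule bundler Prc1 and 0.56 for Anln, the anillin scaffold of the contractile ring. Anln had 29.0, 48.3 and 12.3 CPM in WT, a spread as wide as the difference from the 44.5, 44.3 and 42.9 CPM of SIRPα KO (SE 0.41, adjusted p = 0.378).

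Among condensin and chromosome structure genes none of 7 was called. Ncapg, a condensin I subunit, had the third highest log2 fold change of the 46 as counted (0.58, SE 0.23, adjusted p = 0.124). It was at 52.3, 72.2 and 37.6 CPM in WT and at 83.7, 80.6 and 78.0 CPM in SIRPα KO. The condensin ATPases Smc2 (0.33) and Smc4 (0.28) were higher in every SIRPα KO library, Ncapd2 (-0.35) was lower in every one, and Ncaph (-0.01) was level. Top2a, the topoisomerase that untangles sister DNA, had 283, 372 and 244 CPM in WT against 364, 392 and 352 CPM in SIRPα KO (log2 fold change 0.30, SE 0.16, adjusted p = 0.230). Mki67, the coat protein of mitotic chromosomes that is used as the Ki-67 marker of dividing cells, had 179, 278 and 188 CPM in WT against 259, 285 and 232 CPM in SIRPα KO. The groups overlapped, and the log2 fold change of 0.27 (SE 0.18) was not past the threshold (adjusted p = 0.348). Both genes had their highest WT value in replicate 2.

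Levels could be compared between genes only per length of transcript. Per kilobase of the longest annotated transcript, Ube2c (116 CPM per kb in WT), Cdc20 (105) and Ccnb1 (101) were the highest and Cenpf (2.53), Kif20b (5.39) and Kif15 (5.85) the lowest. The choice of transcript changed such a level. With the APPRIS principal transcript, Ube2c was at 263 CPM per kb and Birc5 moved from 56.1 to 198 CPM per kb, and in both the longest transcript is protein coding. For 9 other genes the longest is a retained-intron form, among them Cenpa, which moved from 34.3 to 89.0 CPM per kb. These are levels in WT averaged over libraries. The overlap of Ube2c, Cdc20, Cdc25b, Cdca8, Plk1, Ccna2, Kif20a, Kif4, Prc1, Cdc25c and Ncapg with exons of genes on the opposite strand is a further limit, since strand use in counting was not stated.

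The log2 fold changes of these genes ran with the length of their transcripts. By principal transcript, the 11 genes shorter than 2000 bases were all lower in SIRPα KO and included 6 of the 7 genes that fell, and their median log2 fold change was -0.45. The 15 genes of 4000 bases or more included 12 that were higher, with a median of 0.30 and none called, and the 20 genes between had a median of 0.00. All genes tested showed the same order, with medians of -0.39, 0.08 and 0.35 in the 3 length classes. Of the 4658 tested genes shorter than 2000 bases, 3654 were lower and 545 were called lower. Of the 3679 of 4000 bases or more, 2656 were higher and 448 were called higher. Across the 46 genes the log2 fold change and the log2 length had a Pearson's r of 0.77 and a Spearman's rho of 0.74, and across 9124 tested genes at or above an average log2 CPM of 3 these were 0.50 and 0.54. Genes are not independent replicates, and all of these points come from the same 6 libraries, so the correlation is a description.

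**Figure D2:**
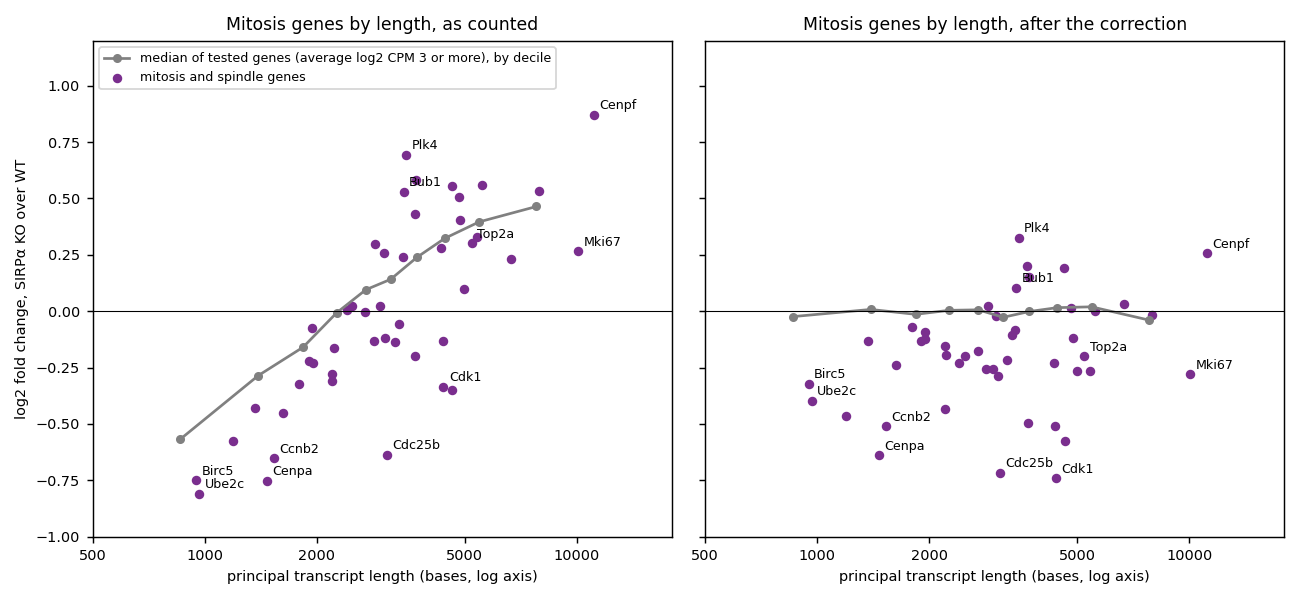
Log2 fold change (SIRPα KO over WT) against principal transcript length in bases (log axis), as counted on the left and after the correction for length and GC content on the right, with 1 purple point per mitosis gene and the median of the 9124 more abundant tested genes (average log2 CPM of 3 or more) by length decile in grey. On the left the points rise with length as the grey line does, from Birc5 and Ube2c to Cenpf, and on the right the line is flat and 36 of the 46 points are below 0.

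The length trend differed between single libraries as well as between genotypes. Over the same 9124 genes, in the shortest decile of transcripts, the median deviation from the mean of the 6 libraries, on the log2 scale, was 0.62 in WT replicate 3 and 0.10 in WT replicates 1 and 2, and ran from -0.28 to -0.25 in SIRPα KO. In the longest decile it was -0.58 in WT replicate 3, -0.15 and -0.01 in WT replicates 1 and 2, and 0.24 to 0.29 in SIRPα KO. WT replicate 3 thus stood apart in the direction of shorter transcripts. Of the 11 mitosis genes shorter than 2000 bases, 6 had their highest value in that library, as did 61.2% of all tested genes of that length. Of the 15 of 4000 bases or more, 10 had their lowest value there, against 55.6% of all tested genes. The longest of them, Cenpf and Mki67, were lowest in WT replicate 1.

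**Figure D3:**
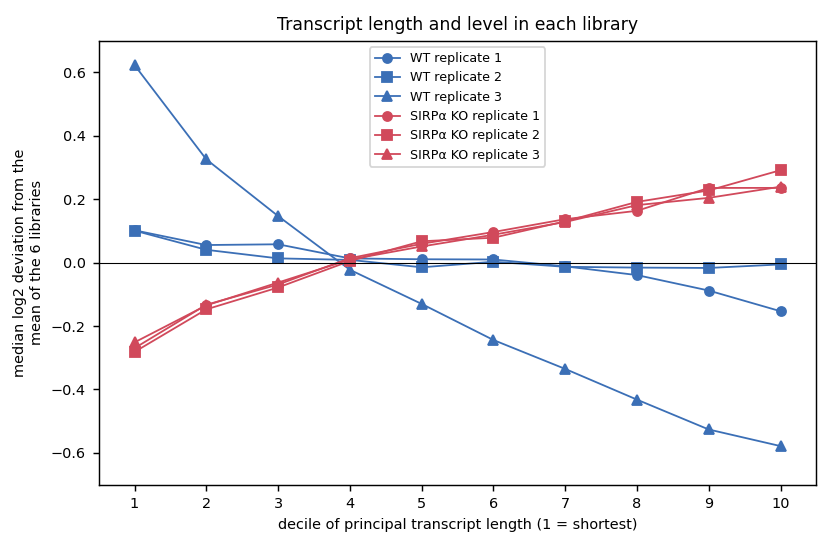
Median log2 deviation of each library from the mean of the 6 libraries, by decile of principal transcript length from the shortest (1) to the longest (10) over 9124 genes, with WT in blue and SIRPα KO in red. WT replicate 3 falls from 0.62 to -0.58, while the 3 SIRPα KO libraries rise together.

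A correction that takes the fitted trend on principal transcript length and GC content out of each library left fewer differences of positive sign. After it, 10 of the 46 genes had an adjusted p under 0.05 and were lower, and none was higher. Over all genes tested, 4.48% were called lower and 3.96% higher. With libraries of one code summed, the corrected fit called none of the 46, and 30 genes over all tested. With no gene called higher by edgeR, none had an unadjusted p under 0.05 on that side either, and DESeq2 without the correction called 4 higher, where it called 12.3% of all genes higher. The median log2 fold change of the 46 genes moved to -0.20, beside -0.03 for all genes tested, and in the 3 length classes from short to long it was -0.24, -0.18 and -0.20. Across the 46 genes the corrected log2 fold change and the log2 length still had a Pearson's r of 0.31 and a Spearman's rho of 0.28. WT and SIRPα KO libraries did not overlap for 19 of the 46 genes after the correction, 19 lower and 0 higher in SIRPα KO, where 17.7% of all genes tested were lower without overlap and 16.6% higher. Of the 7 genes that had fallen, 6 kept their call, which were Cenpa (-0.64), Cdc25b (-0.72), Ccnb2 (-0.51), Spc25 (-0.46), Ube2c (-0.40) and Birc5 (-0.32). Cdca8 (-0.24, adjusted p = 0.176) and Bub1 (0.10, adjusted p = 0.674) did not. The 4 others called lower were Cdk1 (-0.74, adjusted p = 0.0466), Ncapd2 (-0.57, adjusted p = 0.0299), Tpx2 (-0.51, adjusted p = 0.0258) and Kif20a (-0.50, adjusted p = 0.0236), each with a principal transcript of 3674 to 4629 bases. Corrected levels of Cdk1 were 144, 159 and 235 CPM in WT against 114, 106 and 102 CPM in SIRPα KO. Its highest value was that of WT replicate 3, the library with the steepest length trend. With that library left out of the corrected fit, which leaves only code 37 in WT, Cdk1 was still called lower (-0.50, adjusted p = 0.0209). With summed codes in the corrected fit Cdk1 was not called (-0.82, adjusted p = 0.149 by edgeR). Mki67 went from 0.27 to -0.28 (adjusted p = 0.256), and Top2a from 0.30 to -0.20 (adjusted p = 0.261).

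**Figure D4:**
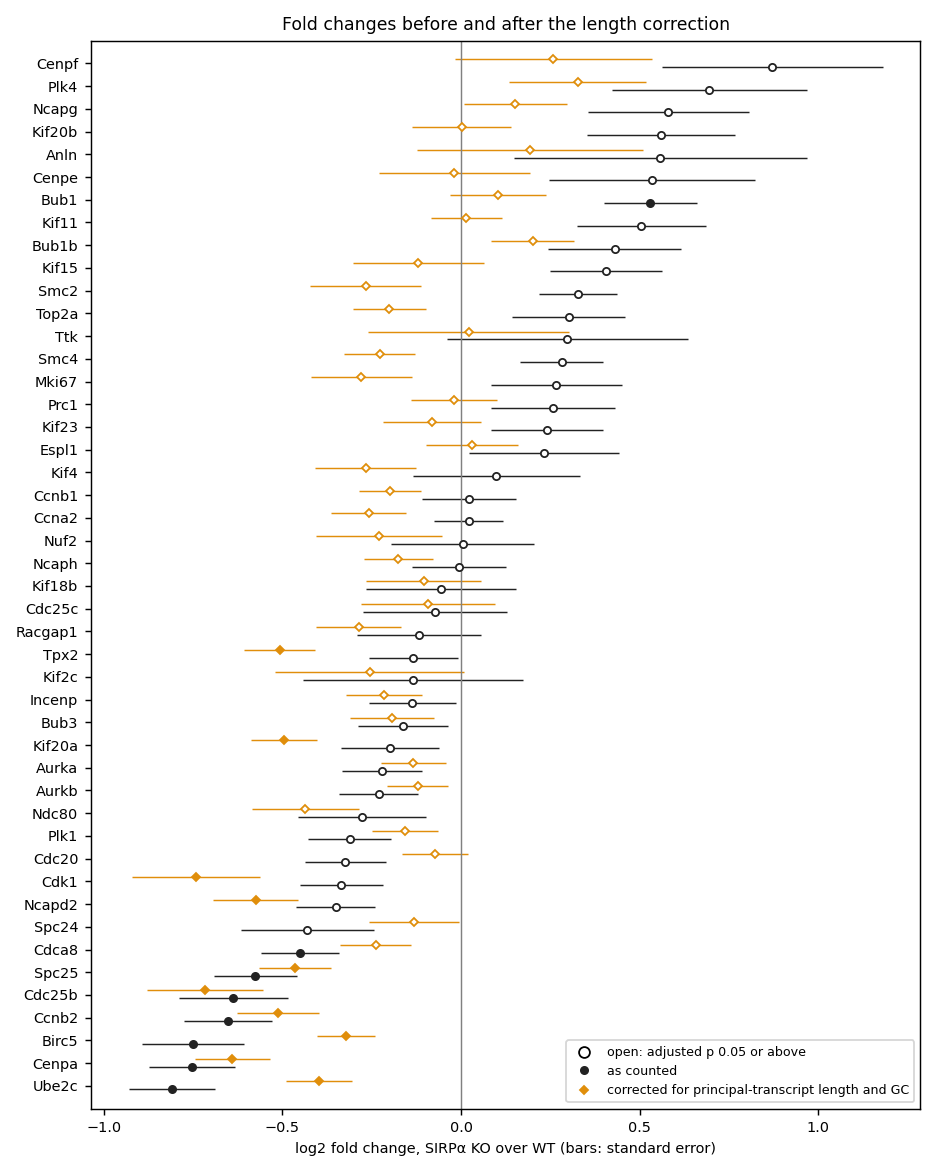
Log2 fold change of each of the 46 genes, SIRPα KO over WT, with standard error bars, as counted (black circles) and after the correction for principal transcript length and GC content (orange diamonds), filled where the adjusted p was under 0.05. Long genes such as Cenpf, Mki67 and Top2a move to the left, and Cenpa, Cdc25b and Ccnb2 stay below -0.5.

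With the longest annotated transcript in its place, the correction called 12 of the 46 genes lower and none higher, where the background was 4.83% lower and 4.11% higher. Ccnb2 lost its call in this fit (log2 fold change -0.44, adjusted p = 0.0681), as did Bub1 (0.21, adjusted p = 0.322). All 8 calls of the uncorrected test were lost when libraries of one code were summed, which left 2 against 2, and when any SIRPα KO library was left out (adjusted p from 0.0811 to 0.184 by edgeR). Calls fell over all genes as well, from 1600 to 10 with summed codes and to 16 or 17 without a SIRPα KO library. The log2 fold changes moved little, with Ube2c at -0.85 and Cenpa at -0.78 in the summed fit, and with single libraries left out from -0.89 to -0.71 for Ube2c and from -0.79 to -0.69 for Cenpa. With the library code as a random block in limma-voom, which kept all 6 libraries, Cdc25b (adjusted p = 0.0611), Cdca8 (adjusted p = 0.0636) and Bub1 (adjusted p = 0.0720) lost their calls. That left 0 higher and 5 lower, where 4.77% of all genes were called higher and 3.24% lower. Without WT replicate 1, Bub1, Cdc25b and Cdca8 lost their calls, leaving 0 higher and 5 lower, where 4.03% of all genes were called higher and 3.86% lower. Without WT replicate 2 or 3 all 8 kept theirs, and more genes were called in general. The former fit called 7 of the 46 higher and 7 lower, where 9.28% and 7.04% of all genes were, and the latter 3 higher and 11 lower, where 10.4% and 8.07% were. In the summed fit, 5 of the 46 genes were higher and 7 lower at an unadjusted p under 0.05, where 12.3% and 10.8% of all genes were.

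A wider list of 145 other mitosis genes held 144 in the test, of which 9 rose (6.25%) and 21 fell (14.6%), where 5.94% and 5.81% of all genes did, around a median of -0.04 on the log2 scale. The share that rose was thus near that of all genes. With libraries of one code summed no gene of the list was called, with or without the correction. With the code as a random block 9 were called higher and 12 lower, where 4.77% and 3.24% of all genes were. The genes that rose had principal transcripts of 2683 to 8942 bases. Of the 14 cohesin and condensin II genes tested, 4 rose, all of cohesin, which holds sister chromatids together. These were Stag1 (1.23), Pds5b (1.09), Stag2 (0.98) and the cohesin release factor Wapl (0.89). The APC/C subunits Anapc1 (1.18) and Cdc27 (1.15), the augmin subunit Haus6 (1.06), the transcription factor E2f7 (0.65) and the abscission protein Cep55 (0.60) made up the rest. Kif18a had the highest log2 fold change of the list at 1.24 without a call (adjusted p = 0.0601). Of the 21 genes that fell, 15 had principal transcripts shorter than 2000 bases, a length at which 545 of all 4658 tested genes were called lower. Among the 35 kinetochore and centromere genes tested 8 fell. They were Cenpm (-1.02), Cenpk (-1.02), Cenpx (-0.96), Cenpw (-0.91), Cenps (-0.86), Cenpb (-0.81), Pmf1 (-0.79) and Cenpq (-0.58). Another 4 were among the 21 genes tested of the APC/C and exit from mitosis. These were Anapc11 at -1.11, the lowest of the list, Anapc13 at -1.08, Anapc16 at -0.68 and Ube2s, the partner of Ube2c in building ubiquitin chains, at -0.59. The others were Pimreg (-0.97), the microtubule regulator Stmn1 (-0.90), the chromatin protein Hmgb2 (-0.86), Pkmyt1 (-0.84), which inhibits Cdk1, Haus5 (-0.77), Arpp19 (-0.66), Haus1 (-0.65), Cdca3 (-0.62) and Cks1b (-0.58), a subunit bound to Cdk1. With the correction for principal transcript length and GC content, 4 were called higher (2.78%) and 16 lower (11.1%), where 3.96% and 4.48% of all genes were. Of the 9 genes that rose 4 kept their call, and of the 21 that fell 11 did. Among kinetochore and centromere genes the number called lower went from 8 to 3, which were Cenpk (-0.98), Cenpw (-0.97) and Cenpq (-0.70), and among cohesin and condensin II genes the number called higher went from 4 to 2, which were Stag1 (0.72) and Wapl (0.33). Stmn1 (-0.54) and Hmgb2 (-1.21) stayed lower, and Ube2s (-0.05, adjusted p = 0.690) lost its call.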

How the data were processed

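Cultured lung ILC2s were profiled by bulk RNAseq, with 3 WT and 3 SIRPα KO libraries grouped by their titles. Per the labels and the study's methods, the authors aligned reads to mm10 with STAR and the GENCODE M21 annotation within Partek, and deposited estimated counts per gene, not scaled for library size. The submitters' processing notes give Partek 10.0 and STAR 2.7.8, while the study's methods name other versions of both. Use of strand in counting was not given in the sources used here. Between 56.9% and 60.7% of values were exactly whole (no tolerance), and all were rounded. The record of columns lists 237 genes by name, and the 17594 others hold the same unit.

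Genes were filtered with edgeR's filterByExpr (10 reads in a library of median size, 15 in total), scaled by TMM and tested by genotype with the quasi-likelihood test, with Benjamini-Hochberg adjustment over 13623 genes and a threshold of 0.05. The standard error came from the F statistic. R 4.3.3, edgeR 4.0.16, limma 3.58.1, DESeq2 1.42.0 and matplotlib 3.10.9 were used. DESeq2, voom with the library code as a random block, other scalings and filters, a replicate block, summed codes, thinning and leaving out each library were the alternatives. Procedures were tested on simulated counts with the same dispersion in every library and no shared codes. These runs therefore cannot check the effect of WT replicate 3 or of the codes.

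The members and lists were chosen with earlier results of these data known. Every member was named, with values by library for Mki67, Top2a, Cdk1, Ccnb1, Plk1, Aurkb, Birc5, Cdc20, each called gene and the 3 highest and 3 lowest log2 fold changes. Other genes given by library were chosen after their values were seen. Corrections fitted splines with 5 degrees of freedom on length and GC content to each library over 8806 genes outside the lists. That with principal transcripts was added after seeing the data.

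The chi-square of counts per degree of freedom was 30.6 for WT replicates 1 and 2, which share a code, and 81.2 and 67.0 for the other WT pairs. It was 10.8 for SIRPα KO replicates 2 and 3, which share a code, and 8.41 and 12.3 for the other pairs. Separately amplified libraries of one sample can differ by more than counting noise, so this does not settle whether a code is 1 sample. The 3 replicates of the labels were kept.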

Additional observations from a re-analysis of the deposited data

How the results depend on the processing

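Library codes and the small groups limit these results more than depth does, since thinning every library to the smallest left every count of calls among the 46 genes as it was. If a code is 1 sample, p values from 3 against 3 are too small. Without WT replicate 3, WT consists of code 37 alone. The replicate numbers did not pair the samples (correlation of deviations -0.15, 0.19 and 0.04 for numbers 1 to 3). With the replicate block, 1 of the 46 genes was called higher, Cenpf (adjusted p = 0.0468, against 0.138 with summed codes, by edgeR), and 4 were called lower. Bub1, Cdc25b, Cdca8 and Spc25 lost their calls. In the wider list 9 were called higher and 12 lower. Calls over all genes, of either direction, numbered 1118 with the block against 1600 without it.

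Genes called higher among the 46 numbered 4 with DESeq2 (3084 calls over all genes) and 2 at an adjusted p under 0.1 (3054). The number was 0 with upper quartile factors, without a filter, with the library code as a random block and with summed codes (also when corrected). It was also 0 with each length correction, and with the principal-transcript correction and WT replicate 3 left out. Leaving out single libraries gave 0 to 7. Genes called lower numbered 12 with the longest-transcript correction (1218 calls over all genes), 14 with the principal-transcript correction and WT replicate 3 left out (1541), 5 with the code as a random block (1091), 5 without a filter (1151), 0 with summed codes, corrected or not, and 0 to 11 with single libraries left out. The median log2 fold change was -0.20 with the principal-transcript correction and -0.19 with that and summed codes. It changed sign to 0.03 with summed codes and 0.02 with the code as a block, and ran from -0.10 to 0.05 with single libraries left out. The count over all genes tested was 10 with summed codes, 30 with summed codes and the correction, and 16 to 2606 with single libraries left out.

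In the wider list, 24 of 144 genes were higher with DESeq2, where 12.3% of all genes were. At an adjusted p under 0.1 there were 22, beside 3054 calls of either direction over all genes. Either length correction left 4, where 3.96% of all genes were higher with the principal and 4.11% with the longest transcript. The number was 5 with the principal one and WT replicate 3 left out (1541 calls over all genes). It was 0 with summed codes, corrected or not, and 0 to 21 with single libraries left out (16 to 2606 calls over all genes). Genes lower there numbered 28 with DESeq2 (3084 calls of either direction over all genes) and 27 at an adjusted p under 0.1. There were 12 without a filter (1151) or with the code as a random block (1091). The number was 0 with summed codes, corrected or not, and 0 to 24 with single libraries left out.

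None of the 8 called genes changed sign. The following log2 fold changes, not called in the uncorrected test, did, and the cause was not tested. Of them Ccnb1 alone was called after its change of sign, in the principal-transcript correction with WT replicate 3 left out (adjusted p = 0.0439 by edgeR). With the longest-transcript correction these were Ccna2 (-0.16), Ccnb1 (-0.10), Nuf2 (-0.35), Kif15 (-0.050), Kif4 (-0.21), Prc1 (-0.046), Smc2 (-0.20), Smc4 (-0.14), Top2a (-0.14) and Mki67 (-0.27). With the principal-transcript correction they were Ccna2 (-0.26), Ccnb1 (-0.20), Cenpe (-0.019), Nuf2 (-0.23), Kif15 (-0.12), Kif4 (-0.27), Kif23 (-0.082), Prc1 (-0.020), Smc2 (-0.27), Smc4 (-0.23), Top2a (-0.20) and Mki67 (-0.28). With that and summed codes they were Ccna2 (-0.31), Ccnb1 (-0.16), Nuf2 (-0.24), Kif15 (-0.23), Kif4 (-0.22), Kif23 (-0.10), Smc2 (-0.34), Smc4 (-0.25), Top2a (-0.21) and Mki67 (-0.30). With that and WT replicate 3 left out they were Ccna2 (-0.15), Ccnb1 (-0.27), Ttk (-0.23), Espl1 (-0.071), Cenpe (-0.047), Nuf2 (-0.31), Kif11 (-0.016), Kif4 (-0.38), Kif23 (-0.032), Prc1 (-0.088), Anln (-0.093), Smc2 (-0.065), Smc4 (-0.14), Top2a (-0.16) and Mki67 (-0.19). Upper quartile factors turned Ccna2 (-0.080), Ccnb1 (-0.071) and Nuf2 (-0.089), and a filter of 1 CPM in 3 libraries turned Nuf2 (-0.0056). Summed codes turned Kif18b (0.040), Kif2c (0.037), Racgap1 (0.0079) and Ncaph (0.058), and the code as a random block turned Kif18b (0.019), Kif2c (0.049) and Ncaph (0.025). Ncaph was also at 0.0026 with DESeq2, 0.0025 with RLE factors, 0.00032 with the replicate block and 0.016 without a filter. With single libraries left out, Ccnb1 ran from -0.091 to 0.11, Cdc25c from -0.19 to 0.073, Ttk from -0.0020 to 0.64, Nuf2 from -0.13 to 0.15, Kif18b from -0.25 to 0.090, Kif2c from -0.44 to 0.067, Kif4 from -0.13 to 0.24 and Ncaph from -0.085 to 0.064.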
